A study of Homo sapiens with 6 samples.

Results

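The genes described here are 10 secreted signals of inflammation: the chemokines CXCL1, CXCL2, CXCL3, CXCL8 and CCL2, and the cytokines IL6, IL1A, IL1B, LIF and IL11. They were taken by gene symbol from the authors' table of 20745 genes, and all 10 had a value there. RNA was sequenced from AB 8/13 cells, a conditionally immortalized human podocyte line that divides at a permissive temperature and differentiates at a restrictive one. By the study's methods, the cells were differentiated at the restrictive temperature before treatment. There were 3 vehicle cultures and 3 cultures given 1 µM levamisole, each for 24 h, and the study's methods state that every culture of a group came from a different passage. The labels describe both groups as kept without serum, whereas by the methods the vehicle was complete medium. The word control also stands in the titles of the levamisole cultures.

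Chemokines of the CXC family that carry an ELR motif, here CXCL1, CXCL2, CXCL3 and CXCL8, draw neutrophils through the receptors CXCR1 and CXCR2, while CCL2 draws monocytes through CCR2. IL1A and IL1B are ligands of the interleukin-1 receptor and start inflammatory signalling. IL6, LIF and IL11 belong to one cytokine family whose receptors share the signalling chain IL6ST, also known as gp130. In many cells these genes are switched on by NF-kB and AP-1, and their messages are kept short-lived by AU-rich elements in the 3′ untranslated region.

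The value used for each gene was the authors' base mean, the mean of its normalized read counts over the libraries of their fit. It is 1 pooled number per gene, so it carries no SD, and the levels in vehicle and levamisole cultures could not be set side by side. It may also cover more than the 6 labelled cultures. Over 6 libraries of like depth, a base mean under 1 would allow at most 5 reads, which can be spread in 461 ways. In the table, 3744 genes had a base mean under 1, and 0 of the 20745 genes shared a value with another. The libraries in the authors' fit and their depths are not given in the sources used here, so whether others were included cannot be settled, and each level is that of the pooled libraries and not of one condition. The lowest base mean of any gene was 0.194, the median 21.8 and the upper quartile 131.

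All 10 genes had a base mean of at least 5, which 64.3% of all genes in the table reached. Their base means spread over 86.3-fold, with a median of 434, and 9 of the 10 lay above the median gene. CCL2, CXCL8, CXCL1, LIF and IL6 lay above the 90th percentile of genes, a base mean of 401. These 5 genes held 89.0% of the summed base mean of the 10, and the 10 together held 0.0778% of that of all genes. The reads came mostly from the 3′ end of transcripts, so that a transcript gives a similar number of reads whatever its length. Division by length does not suit such reads and favours short transcripts, so values per kb are given here and below only as an alternative. As a base mean per kb of transcript, the order of 3 neighbouring pairs turned around, with CXCL1 above CXCL8, IL6 above LIF and CXCL2 above IL1A. The other places in the order stayed as they were. With no spread between cultures, it cannot be said which neighbours in the order differ beyond error.

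**Figure D1:**
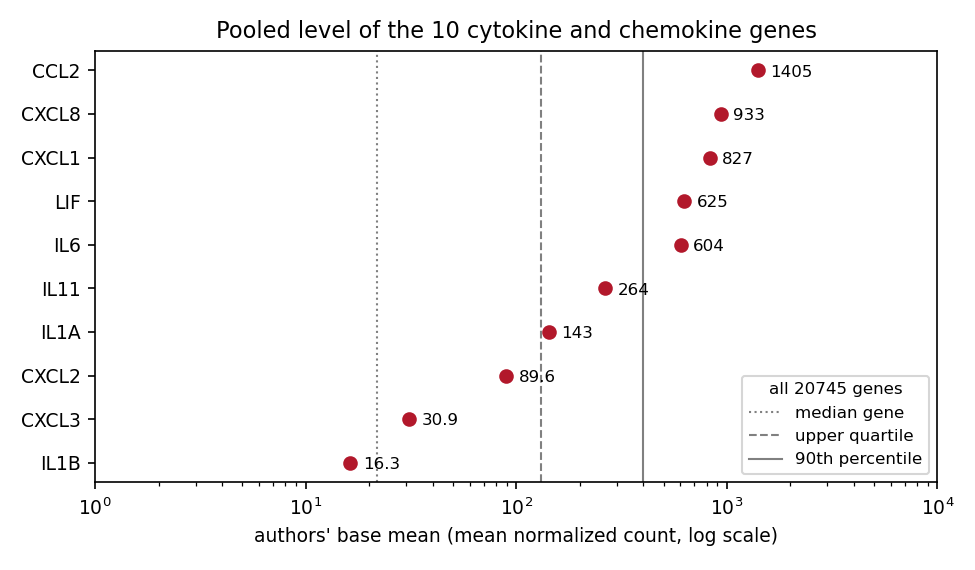
Authors' base mean (mean normalized count, log scale) of each of the 10 genes, with 1 point per gene and no error, since the value is pooled. Vertical lines mark the median, upper quartile and 90th percentile of all 20745 genes, and the points run from 16.3 for IL1B to 1405 for CCL2.

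CCL2 (ENSG00000108691), the monocyte chemoattractant, had the highest level of the 10, with a base mean of 1405 and rank 490 of 20745. It lies on chromosome 17 of GRCh38 from 34255274 to 34257208, on the plus strand, and has 3 exons. Its base mean was 1.51 times that of CXCL8, and per kb of transcript the ratio was 3.34, since its transcript of 741 bases is shorter than the 1642 bases of CXCL8.

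The neutrophil chemokines split into a high and a low pair. CXCL8 (ENSG00000169429), known as interleukin-8, had a base mean of 933 at rank 828, and CXCL1 (ENSG00000163739) had 827 at rank 960. CXCL2 (ENSG00000081041) had 89.6 at rank 6429, and CXCL3 (ENSG00000163734) had 30.9 at rank 9542. CXCL1 thus stood 9.24-fold above CXCL2 and 26.8-fold above CXCL3 in base mean. Per kb of transcript these ratios were 8.77 and 24.5. CXCL2 stood 2.90-fold above CXCL3.

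The 4 genes lie in 1 cluster of 359 kb on chromosome 4 of GRCh38. CXCL8 (73740519 to 73743716) and CXCL1 (73869393 to 73871308) are on the plus strand, 126 kb apart. CXCL3 (74036589 to 74038807) and CXCL2 (74097040 to 74099196) are on the minus strand, 58.2 kb apart. Each has 4 exons. The coding sequence of CXCL1 was 93.5% identical to that of CXCL2 and 90.7% to that of CXCL3, and CXCL2 and CXCL3 were 94.4% identical. CXCL8 shared 51.6% to 54.1% with these 3.

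Since CXCL1, CXCL2 and CXCL3 differ that much in level, the 110 bases just before each start site are shown for the 4 chemokines, from RefSeq on GRCh38.p14, 5′ to 3′ on the strand of the gene. Capitals mark matches to GGNNTTTCC, a pattern like an NF-kB site, where N is any base. CXCL1 is chr4:73869283-73869392 on the plus strand, CXCL2 chr4:74099196-74099305 on the minus strand, CXCL3 chr4:74038690-74038799 on the minus strand and CXCL8 chr4:73740459-73740568 on the plus strand.
CXCL1: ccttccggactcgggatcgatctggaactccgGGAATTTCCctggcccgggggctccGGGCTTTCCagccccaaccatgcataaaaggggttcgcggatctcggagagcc
CXCL2: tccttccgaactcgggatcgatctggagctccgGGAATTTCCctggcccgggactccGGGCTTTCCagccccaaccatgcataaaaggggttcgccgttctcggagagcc
CXCL3: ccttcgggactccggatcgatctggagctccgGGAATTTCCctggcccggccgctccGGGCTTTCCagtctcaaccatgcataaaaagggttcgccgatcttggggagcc
CXCL8: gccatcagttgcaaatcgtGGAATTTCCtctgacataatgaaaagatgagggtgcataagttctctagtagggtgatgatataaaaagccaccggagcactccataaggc

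CXCL1, CXCL2 and CXCL3 hold both matches at almost the same distance from the start site, and CXCL8 holds the first of the pair only. Over the 250 bases before the start site, CXCL1 was 81.0% identical to CXCL3 and 68.0% to CXCL2, and CXCL2 was 73.3% identical to CXCL3. CXCL8 was 40.5% to 45.0% identical to the other three, which shows what an alignment of less related sequence gives here. By this 250-base measure, the most alike pair was CXCL1 and CXCL3, which had the highest and the lowest level of these related genes. In the shorter stretches printed above, CXCL1 differs less from CXCL2 than from CXCL3 once a gap is allowed. Which pair is most alike thus depends on the length compared, and a link between promoter likeness and level was not tested. A match of letters describes the reference sequence and was not tested as a site.

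A promoter of 250 bases was at hand for 8 of the 10 genes, CCL2 and LIF being the other two. On either strand, 5 of the 8 held GGNNTTTCC, against 5.48% of 35116 promoters of the same length. These were the 4 chemokines and IL6. CXCL1, CXCL2 and CXCL3 hold the same pair of matches in related sequence, so they are not independent cases. Each of the 8 genes was counted by a single promoter, whereas the 35116 promoters were not reduced to a single one per gene. The pattern TGANTCA, that of AP-1, was held by 3 of the 8 (CXCL8, IL1A and IL11) against 6.57% of promoters, and TATAAA by CXCL8 and IL1A against 10.7%. The TATAAA match lay at -31 to -26 from the start site in CXCL8, but far from it in IL1A, at -239 to -234. In these windows the patterns did not overlap one another. In IL6 (GRCh38.p14, chr7:22727090-22727199, plus strand), printed here for its single match, GGNNTTTCC lies in the 110 bases before the start site.
IL6: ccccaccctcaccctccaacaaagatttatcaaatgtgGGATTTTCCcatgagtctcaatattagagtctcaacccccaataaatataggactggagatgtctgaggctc

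Reads of near-identical genes can be lost or shared, so the 3′ ends were compared. In the last 500 exonic bases, 26 of 441 windows of 60 bases in CXCL1, the length of the cDNA read, were found unchanged in CXCL2, and the reverse held for CXCL2 (5.90% each). With up to 1 mismatch this rose to 90 windows in each gene (20.4%). CXCL3 and CXCL8 had 0 of 441 such windows under either setting. Over the last 1000 exonic bases, however, 38 of 941 windows of CXCL3 (4.04%) were found unchanged in CXCL2, against 28 in CXCL1 and 34 in CXCL2 that were found in another gene, and CXCL8 still had 0. The methods state that reads mapping equally well to several places were discarded in one alignment, and the default setting of the counting tool does the same. The counts of CXCL1, CXCL2 and CXCL3 are therefore uncertain over these stretches, and how much this bears on their levels was not tested.

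**Figure D2:**
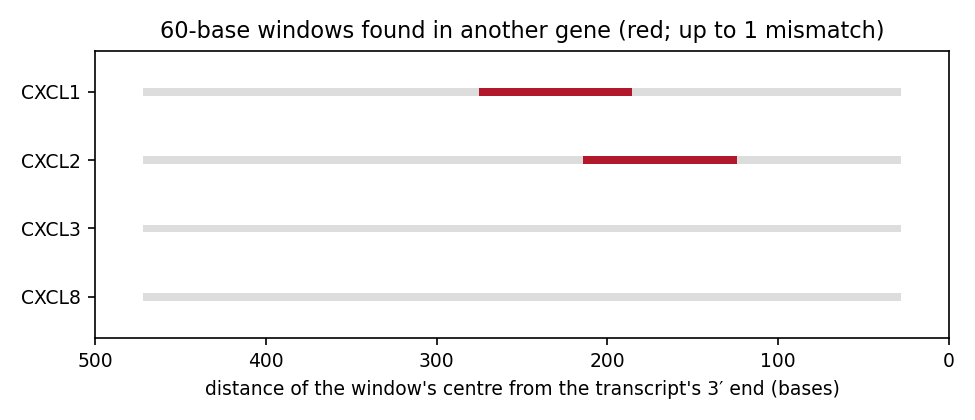
Windows of 60 bases along the last 500 exonic bases of CXCL1, CXCL2, CXCL3 and CXCL8, placed by the distance of their centre from the 3′ end. Red marks windows found in another gene with up to 1 mismatch, which run from 184 to 273 bases from the end in CXCL1 and from 123 to 212 in CXCL2, with 0 in CXCL3 and CXCL8.

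Of the ligands that signal through gp130, LIF (ENSG00000128342), leukemia inhibitory factor, had a base mean of 625 at rank 1319. IL6 (ENSG00000136244), the inducer of the acute phase response, had 604 at rank 1376. IL11 (ENSG00000095752), a cytokine linked to fibrosis, had 264 at rank 3073. LIF and IL6 were thus close, with a ratio of 1.03, and stood 2.37-fold and 2.29-fold above IL11. Per kb of transcript the ratio of LIF to IL6 fell to 0.301, since the LIF transcript has 3871 bases and the IL6 transcript 1127. IL6 lies on chromosome 7 (22725884 to 22732002, plus strand, 5 exons), LIF on chromosome 22 (30240453 to 30246759, minus strand, 3 exons) and IL11 on chromosome 19 (55364382 to 55370463, minus strand, 5 exons). In LIF, 17.2% of the last 500 exonic bases are covered on the opposite strand by LIF-AS1.

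Both interleukin-1 genes had lower base means than LIF, IL6 and IL11. IL1A (ENSG00000115008), whose precursor is active, had a base mean of 143 at rank 4898. IL1B (ENSG00000125538), which needs cleavage by caspase-1 to become active, had 16.3 at rank 11008 and was the only one of the 10 below the median gene of the whole table. Among protein-coding genes CXCL3 fell below the median too, at percentile 36.5. IL1A stood 8.76-fold above IL1B in base mean and 6.55-fold per kb of transcript. Both lie on the minus strand of chromosome 2, IL1A from 112773925 to 112784493 and IL1B from 112829751 to 112836816, 45.3 kb apart and with 7 exons each. Their coding sequences were 52.2% identical, and 0 of 441 windows of their 3′ ends were found in another gene. For all 10 genes, no same-strand exon of a second gene overlapped the last 500 exonic bases.

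Of 13 receptor genes, 11 had a value, and 6 of these reached a base mean of 5, with a median base mean of 42.7 against 434 for the ligands. Single receptors could exceed single ligands, as IL6ST did IL11, and IL1RAP and IL1R1 did IL1B. The shared chain IL6ST had 568 and the oncostatin M receptor OSMR, which also pairs with it, had 193. LIFR, the second chain of the LIF receptor, had 59.7, and IL1RAP and IL1R1, the 2 chains of the interleukin-1 receptor, had 56.1 and 46.7. IL11RA, the specific chain for IL11, had 42.7, but a second gene of the same strand overlaps 96.8% of its last 500 exonic bases, so its count is uncertain.

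A further 5 receptors had base means near 1. IL6R, the chain that binds IL6, had a base mean of 1.42, and CXCR2 had 0.904. The atypical chemokine receptors ACKR1 and ACKR2, which take up chemokines without the usual signal, had 1.11 and 1.09. The decoy receptor IL1R2 had 1.01. CXCR1 and CCR2 were not analysed here.

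Among inhibitors and feedback genes, SOCS3, an inhibitor of gp130 signalling, had a base mean of 305. SIGIRR, which restrains interleukin-1 signalling, had 53.3, and SOCS1 had 17.9. IL1RN, the antagonist that competes with IL1A and IL1B for their receptor, had 0.348. The IL-1 processing genes all reached 5. PYCARD, the inflammasome adaptor, had 90.8, the sensor NLRP3 42.4, caspase-1 (CASP1) 30.3 and the pore protein GSDMD 11.2. A second gene of the same strand overlaps 57.2% of the last 500 exonic bases of NLRP3.

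Another 35 genes of cytokine and chemokine ligands were listed, of which 29 had a value and 18 reached a base mean of 5. Their median base mean was 9.92, and 3 of them lay above the median of the 10 genes. These were IL32, a cytokine without a known classical receptor, with 923, the gp130 ligand CTF1 with 681, and the membrane-bound chemokine CXCL16 with 520. The summed base mean of the 10 genes was 1.55 times that of the 29 together.

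By family, 8 of 10 other CXC and CX3C ligands with a value reached 5. CXCL6 and CXCL5, which share CXCR2 with CXCL1, had 141 and 93.5. CX3CL1 had 18.9, the interferon-induced CXCL11 and CXCL10 had 12.3 and 4.84, and CXCL9 was not analysed here. Of the other CC ligands, 1 of 6 reached 5, which was CCL20 with 53.1. CCL5 had 1.41, while CCL28 (0.757), CCL4 (0.569), CCL3 (0.390) and CCL7 (0.344) were under 1. CCL8 and CCL26 were not analysed here. CCL2, with 1405, was above each of these 6 CC ligands.

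Of the other IL-1 and IL-6 family ligands, 3 of 6 reached 5. After CTF1 came CLCF1 with 172 and IL18 with 70.5, whereas IL36G (0.847), IL33 (0.637) and OSM (0.466) were under 1. CNTF and IL27 were not analysed here. Of the colony-stimulating factors and other cytokines, 6 of 7 reached 5. After IL32 came CSF1 with 393, TNF with 33.4 and IL15 with 18.1, and IL34 had 0.374. CSF3 was not analysed here.

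**Figure D3:**
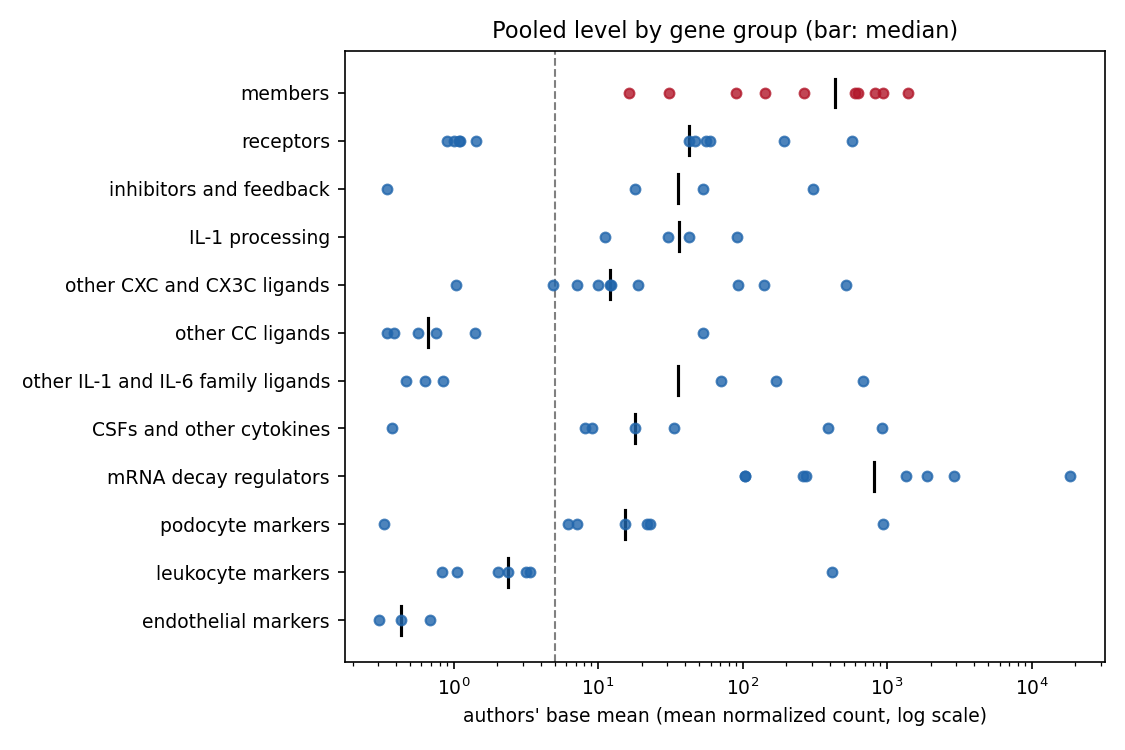
Authors' base mean (log scale) of the genes of each group, with 1 point per gene that had a value and a bar at the median. The dashed line is a base mean of 5. The 10 members run from 16.3 to 1405, the 29 other ligands reach down to 0.344, and the endothelial markers are all under 1.

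The 3′ untranslated regions (3′ UTRs) of the 10 genes were rich in the pentamer ATTTA, the core of AU-rich elements. Every one of the 10 held it, against 75.4% of 13936 protein-coding genes of the table with a 3′ UTR of at least 100 bases. The median density was 7.48 per kb in the 10 genes and 1.82 per kb in all genes. IL6 (14.1 per kb, 6 pentamers in 425 bases) and CXCL2 (13.97 per kb, 10 in 716 bases) had the highest densities of the 10, followed by CXCL3 (10.4) and IL1B (9.84). CXCL1 had 7.77, CXCL8 7.19, IL11 5.54 and IL1A 4.38 per kb. CCL2 with 2.66 and LIF with 2.19 lay nearer to the median of all genes, at percentiles 65.3 and 57.0. The longer pattern TTATTTATT was found in 7 of the 10 genes and in 9.95% of all genes, with 6 copies in IL11 and 5 in CXCL2, and none in IL6, IL1A or CCL2. The median content of A and T was 65.5% in the 3′ UTRs of the 10 genes and 58.1% in all genes. LIF with 43.3% and IL11 with 50.5% lay below the median of all genes, and IL1B with 58.2% was level with it. The part of base composition in these counts was not tested.

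**Figure D4:**
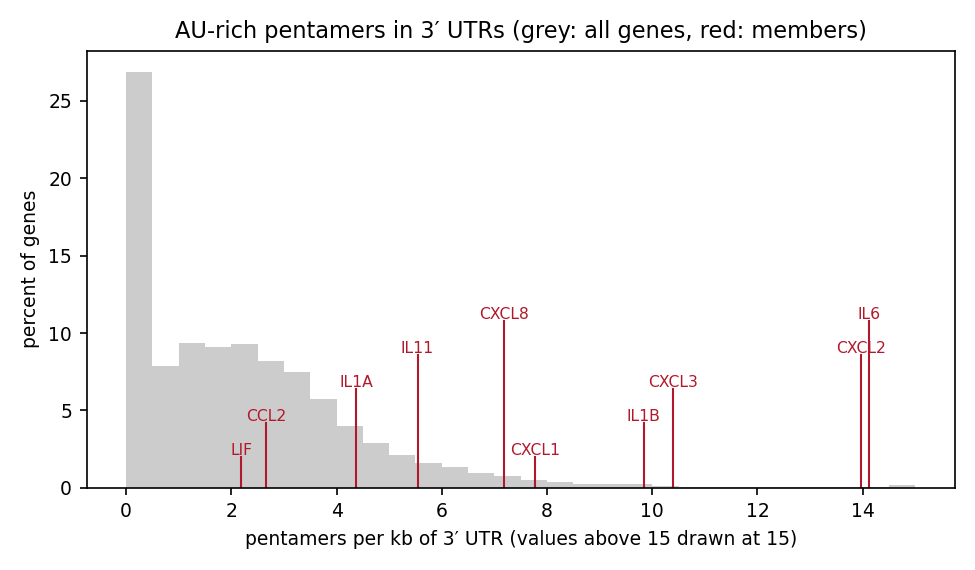
Density of ATTTA in 3′ UTRs (pentamers per kb, x axis) as percent of 13936 genes (grey bars). Red lines mark the 10 genes at heights chosen only to keep the names apart, from 2.19 per kb in LIF to 14.1 per kb in IL6.

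Of the listed regulators of mRNA decay, 8 of 8 reached a base mean of 5. ZFP36L1, a decay factor that binds AU-rich elements, had a base mean of 18488 at rank 27, and HNRNPD had 2893, KHSRP 1873 and the stabilizing protein ELAVL1 1342. Of the others, ZC3H12A, an RNase known for cutting IL6 mRNA, had 273, ZFP36L2 261, RC3H1 104 and ZFP36 103.

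Leukocytes and endothelial cells also make cytokines, but the study's methods describe cultures of a podocyte line alone. Markers of all these cell types were read for their levels only. Of 7 leukocyte markers with a value, 1 reached 5, which was CD74 with 414, a gene also made by other cells with MHC class II. The pan-leukocyte gene PTPRC had 0.832, and the other five ran from 1.06 to 3.40. The lowest of these was CD68, whose count is uncertain because a second gene of the same strand overlaps 82.6% of its last 500 exonic bases. Endothelial CDH5, VWF and TEK had 0.306, 0.434 and 0.690. PECAM1, KDR and CLDN5 of the endothelial list, and LYZ, CD3E and TYROBP of the leukocyte list, were not analysed here. The podocyte list was shortened, since some of its markers are not reported here. Of the 7 remaining with a value, 6 reached 5, with CD2AP at 929, SYNPO at 22.8, PLA2R1 at 21.8, PODXL at 15.3, TCF21 at 7.20 and WT1 at 6.21. PTPRO had 0.333, and NPHS1 was not analysed here. In bulk RNA of a line, fewer cells that hold a transcript and less of it per cell cannot be told apart.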

How the data were processed

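RNA of 3 vehicle and 3 levamisole cultures was sequenced after library preparation modified from CEL-seq. Reads were trimmed by the authors with Trim Galore 0.4.5, mapped to GRCh38 (Ensembl 95) with STAR 2.7.5a, counted with HTSeq 0.11.0 and fitted with DESeq2 1.22.0. The deposited base mean is a signal, the mean of counts that the authors divided by size factors. The table's log2 fold changes, standard errors, Wald statistics, p-values and adjusted p-values are the authors' own comparison and were not used. The depth per library is unknown, and the planned test between groups was not made. The members and gene lists were chosen with earlier results of these data known.

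Ranks, shares and ratios were computed with Python 3.11.15, NumPy 2.4.6 and pandas 2.3.3, and plots with matplotlib 3.10.9. Positions, exons and transcripts are those of the canonical transcript (gene extents for coordinates) in GENCODE 44 on GRCh38, which matched 20599 of 20745 identifiers. Windows of the 3′ ends were searched in transcripts of other genes on both strands with BLAST+ 2.17.0 and then compared base by base. Identities come from global alignments (Biopython 1.88), over all aligned columns. Promoters are RefSeq's, and overlapping motif matches were counted. The functions were tested on simulated data. Named are the 10 genes and the genes of 8 lists by role and 3 lists of markers, chiefly the 4 highest of each list and those under 1 or without a value, with further genes named after their values were seen.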

Additional observations from a re-analysis of the deposited data

How the results depend on the processing

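The median place of the 10 genes, at percentile 89.3 of all genes, was 86.9 among genes whose base mean reached 1, 83.3 among those that reached 5 and 84.8 among protein-coding genes, which rank fewer low genes. As a base mean per kb of transcript it stayed at 89.3. The count of the 10 genes above the middle gene went from 9 to 8 under each of these 3 restrictions, with CXCL3 at percentile 43.9, 28.4 and 36.5 in place of 54.0, and to 10 per kb of transcript. All 10 genes passed a minimum of 1 or of 10, and 8 passed one of 50. Without the 22 mitochondrial genes in the total, the share of the 10 genes rose from 0.0778% to 0.119%. Over CXCL1, CXCL2 and CXCL3 together, the windows found in another gene went from 3.93% to 3.54% with the last 1000 exonic bases and to 13.6% with up to 1 mismatch. The median density of TTATTTATT in place of ATTTA was 1.14 per kb.

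No paired analysis was possible because each gene had 1 pooled value. For the same reason other normalizations, count models, a filter on low counts and leaving out each culture were not run. The pooled value hides any spread between cultures, so no level carries an error, and no difference between genes was tested.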
